A study of Sus scrofa with 3 samples.

Results

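The genes described here are 10 markers and machines of cell division, MKI67, PCNA, MCM2, TOP2A, CCNA2, CCNB1, CCNB2, CDK1, BUB1 and AURKB, followed through the visceral adipose tissue of castrated and testosterone-treated pigs. They were taken by name, not by a cut on their values, but with earlier results of these data known. All 10 were found among the 22826 genes classed as mRNA. Wuzhishan miniature pigs, all males aged 6 to 7 months on arrival, ate a diet rich in fat and cholesterol (HFC) for 12 weeks. IM pigs were intact and had skin incisions only, CM pigs were castrated, and CMT pigs were both castrated and injected each week with 10 mg/kg testosterone propionate in corn oil. Retroperitoneal fat was taken, and RNA from the pigs of a group was mixed into 1 library. The labels give 4 to 6 pigs per pool, whereas the study's methods give 4.

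With 1 library for each group, differences between them have no replicate check, and no test of castration or testosterone could be made. No injection of oil alone is described for IM or CM, so the injection and the hormone cannot be told apart. The libraries also stood apart in transcripts of other tissues. ALB, the serum albumin made by liver, was at 2.61, 2910.1 and 4.00 UQRPKM (reads scaled by gene length and library) across IM, CM and CMT, and ACTA1, the actin of skeletal muscle, at 49.8, 39.8 and 3589. No result could be given without those libraries.

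Adult white fat is a slowly renewing tissue. Mature adipocytes do not divide, and the dividing cells are found mainly among adipocyte progenitors, endothelial cells and immune cells. A cell that enters the cycle first licenses its origins of replication with the MCM helicase, copies its DNA with polymerases held by the PCNA clamp, and then builds up cyclins A and B, which switch on CDK1 and carry the cell into mitosis. MKI67 is made throughout the active cycle and is lost from resting cells, whereas PCNA also works in DNA repair.

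Levels are given in UQRPKM, the reads on a gene divided by its length and by the upper quartile of reads per gene in the library. The reads behind the values were recovered as whole numbers, and a 95% interval of a level (exact Poisson) or of a log2 ratio of levels (exact Clopper-Pearson) covers counting error only. Such reads are the smallest whole numbers that match the values, so those of a gene can be too low, and its intervals too wide, by a common factor. The IM, CM and CMT libraries held 14844063, 13582288 and 13449107 reads on mRNA genes, of which the 10 genes took 1014, 1150 and 974. Depth on single genes ran from 335 reads, for PCNA in CM, down to 1, for BUB1 in IM.

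Some of the rows needed care over their names. The row named MKI67 was 1551 bases long, and the RefSeq gene table lists that name as a synonym of NIFK, a nucleolar protein that binds the product of MKI67. The row carrying the RefSeq gene ID of MKI67 itself was 9922 bases long and is used here. TOP2A was found as TOPOII, its RefSeq synonym. BUB1 had a row under its symbol of 402 bases, which is used, and a second row of 1759 bases under its gene ID. In the same gene table CCNA2 overlaps EXOSC9, whose level was far higher at 142, 162 and 178 UQRPKM in IM, CM and CMT. Whether reads were counted by strand is not given in the sources used here, so the reads of CCNA2 and EXOSC9 may be mixed and CCNA2 is uncertain. CDK1 overlaps an ncRNA gene that was listed at 0, and AURKB overlaps 4 tRNA genes, so the same limit holds for them.

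Across the libraries the genes fell into an upper and a lower range. PCNA, CCNB2 and AURKB averaged 101, 78.5 and 54.7 UQRPKM and MCM2 26.5, while the other 6 averaged 9.34 or less. PCNA, CCNB2 and AURKB together held 57.3%, 58.4% and 73.1% of the reads of the 10 genes across IM, CM and CMT. The median mRNA gene above 0 stood at 50.5 UQRPKM in IM, so MKI67, TOP2A, CCNA2, CCNB1, CDK1 and BUB1 were low in this fat. MCM2, at 31.1 in IM, also lay below that median, and AURKB, at 48.8, lay just under it. In IM the order ran PCNA, CCNB2, AURKB, MCM2, CCNB1, MKI67, CCNA2, TOP2A, CDK1 and BUB1. Neighbours in that order had overlapping counting intervals except PCNA and CCNB2, AURKB and MCM2, and MCM2 and CCNB1.

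**Figure D1:**
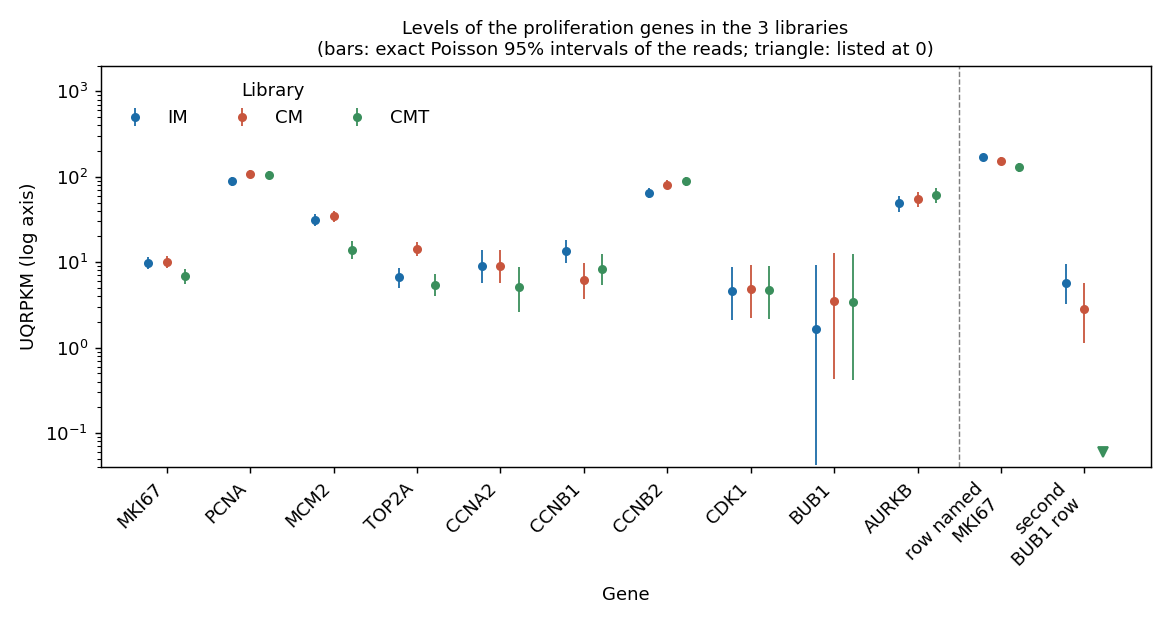
Level of each gene in UQRPKM on a log axis in the IM, CM and CMT libraries (1 library each), with exact Poisson 95% intervals as bars and a triangle for a gene listed at 0. MCM2 and TOP2A are lowest in CMT, at 13.9 and 5.47 UQRPKM, while PCNA, CCNB2 and AURKB stay within 1.37-fold across the libraries. Right of the dashed line are the row named MKI67 and the second BUB1 row.

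MKI67, the source of the Ki-67 antigen used to count cycling cells, was at 9.81 UQRPKM (145 reads) in IM, 10.1 (143 reads) in CM and 6.83 (99 reads) in CMT. IM and CM did not differ beyond counting error, with a log2 ratio of 0.05 (-0.29 to 0.39). CMT was lower than CM, with a log2 ratio of -0.57 (-0.96 to -0.19), and lower than IM, with -0.52 (-0.90 to -0.14). Both intervals leave out 0, but the differences, 1.49-fold and 1.44-fold, stayed short of the 1.5-fold threshold that the study set for a changed gene. In bulk tissue fewer cycling cells and less of a transcript in each cell cannot be told apart. The row named MKI67 stood much higher, at 170, 154 and 129 UQRPKM, and its order across libraries was different, with IM highest. Its log2 ratio of CM to IM was -0.14 (-0.35 to 0.07) and that of CMT to CM -0.25 (-0.48 to -0.02).

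Among the genes of DNA synthesis, MCM2 and TOP2A were lower in CMT than in CM, whereas PCNA was not. MCM2, a subunit of the replicative helicase, was at 31.1 UQRPKM (158 reads) in IM, 34.5 (167 reads) in CM and 13.9 (69 reads) in CMT. CMT thus stood alone at the low end, 2.49-fold below CM, with a log2 ratio of -1.32 (-1.74 to -0.90), and 2.24-fold below IM, with a log2 ratio of -1.17 (-1.60 to -0.75). IM and CM did not differ beyond counting error, at 0.15 (-0.17 to 0.47). The level of TOP2A, the topoisomerase that untangles copied chromosomes and peaks late in the cycle, was 6.64 UQRPKM (57 reads) in IM, 14.4 (118 reads) in CM and 5.47 (46 reads) in CMT. Here CM stood apart, 2.17-fold above IM, with a log2 ratio of 1.12 (0.65 to 1.60), and 2.64-fold above CMT, whose log2 ratio to CM was -1.40 (-1.92 to -0.90). CMT and IM were not separated by counting error, at -0.28 (-0.87 to 0.31). PCNA, the sliding clamp, was at 89.0, 109 and 104 UQRPKM in IM, CM and CMT, from 287, 335 and 329 reads. It was higher in CM than in IM by only 1.22-fold, a log2 ratio of 0.29 (0.06 to 0.53), and CMT and CM differed by less than counting error, at -0.07 (-0.29 to 0.16).

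The cyclins did not move together. Cyclin B1 and cyclin B2 bind the same kinase, CDK1, yet CCNB1 was highest in IM and CCNB2 lowest there. CCNB1 was at 13.5 UQRPKM (41 reads) in IM, 6.20 (18 reads) in CM and 8.37 (25 reads) in CMT. CM was 2.17-fold below IM, with a log2 ratio of -1.12 (-2.01 to -0.29), and CMT lay between them and was not separated from either, at 0.43 (-0.50 to 1.39) against CM and -0.68 (-1.46 to 0.07) against IM. CCNB2 was at 65.4, 80.9 and 89.3 UQRPKM in IM, CM and CMT, from 207, 244 and 277 reads, and was above CCNB1 in every library. Its log2 ratio to IM was 0.31 (0.03 to 0.58) in CM and 0.45 (0.18 to 0.72) in CMT, which is 1.24-fold and 1.37-fold and so under the threshold.

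CCNA2, the cyclin of S phase and early mitosis, was at 9.11 UQRPKM (22 reads) in IM, 9.12 (21 reads) in CM and 5.07 (12 reads) in CMT. CMT was 1.80-fold lower than either, but the log2 ratios of -0.85 (-2.00 to 0.24) against CM and -0.85 (-1.99 to 0.23) against IM lay within counting error. CDK1, the mitotic kinase itself, had 9 reads in each library, at 4.60, 4.83 and 4.70 UQRPKM. At this depth a log2 ratio of CM to IM anywhere in its interval, -1.44 to 1.58, was not detectable as a difference.

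The spindle genes showed no difference beyond counting error in the rows used. AURKB, the kinase of the chromosomal passenger complex that corrects spindle attachments, was at 48.8 UQRPKM (87 reads) in IM, 54.7 (93 reads) in CM and 60.7 (106 reads) in CMT. Its log2 ratio was 0.17 (-0.27 to 0.60) for CM to IM, 0.15 (-0.27 to 0.57) for CMT to CM and 0.31 (-0.11 to 0.74) for CMT to IM. BUB1, a kinase of the spindle checkpoint, had 1, 2 and 2 reads across IM, CM and CMT, at 1.67, 3.50 and 3.41 UQRPKM. CM to IM, a log2 ratio of 1.07, passes the fold threshold, but its interval of -3.19 to 6.95 holds 0 and changes in both directions. CMT to IM, at 1.03 (-3.23 to 6.91), rests on the same few reads. The second BUB1 row had 15, 7 and 0 reads across IM, CM and CMT, at 5.72 and 2.80 UQRPKM, with CMT listed at 0. Taking 3 reads as the upper limit for CMT and the other reads as exact, this row stood higher than in CMT by at least 4.90-fold in IM and by at least 2.40-fold in CM. With counting error in both libraries, the intervals of the log2 ratio ended at -1.81 for CMT to IM and at -0.57 for CMT to CM, the latter short of 1.5-fold. The direction for BUB1 therefore depends on the row, both between IM and CM and between IM and CMT. The second row gave a log2 ratio of CM to IM of -1.03 (-2.57 to 0.35), and its interval for CMT to IM lay below 0.

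**Figure D2:**
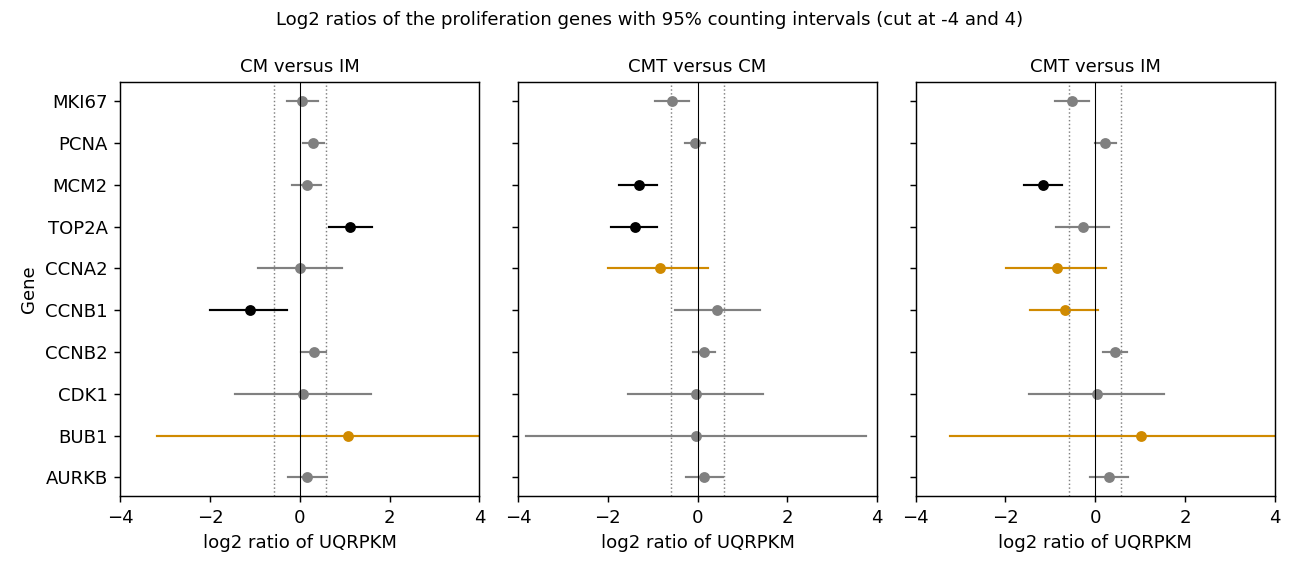
Log2 ratio of UQRPKM for each gene for the 3 comparisons (CM to IM, CMT to CM, CMT to IM), with 95% counting intervals cut at -4 and 4 and dotted lines at 1.5-fold. Black marks a gene past 1.5-fold whose interval leaves out 0, orange a gene past 1.5-fold whose interval holds 0, and grey the rest. TOP2A and CCNB1 are black in CM against IM, MCM2 and TOP2A in CMT against CM, and MCM2 alone in CMT against IM.

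Castration was addressed by CM against IM. A gene was counted as changed at 1.5-fold or more where both libraries reached 1 UQRPKM. By that rule 2 of the 10 genes were higher in CM (TOP2A and BUB1) and 1 was lower (CCNB1). Over all 14123 mRNA genes that reached 1 UQRPKM, 8.38% were higher and 10.4% lower. With the further demand that the interval leave out 0, TOP2A remained higher and CCNB1 lower, beside 5.08% and 6.65% of all genes. The ratio was above 0 for 9 of the 10 genes, and their median log2 ratio was 0.16, beside -0.06 for all genes. The share of all genes above 0 was not computed. Of the 9, CDK1 had 9 reads in both libraries. MKI67 (145 in IM and 143 in CM) and CCNA2 (22 and 21) had fewer reads in CM. These genes lay above 0 only through the scaling between libraries. BUB1 had 1 read in IM and 2 in CM, while its 2 rows together had 16 and 9. Summed over the 10 genes, the reads gave a log2 ratio of 0.25 (0.13 to 0.37). With only the 9 rows found under the listed symbols, which leave out TOP2A and take MKI67 as named, that log2 ratio was 0.10 (-0.02 to 0.21) and no longer beyond counting error. Without TOP2A alone it was 0.18 (0.05 to 0.31).

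Testosterone treatment of castrated pigs was addressed by CMT against CM. No gene of the 10 was higher by 1.5-fold and 3 were lower (MCM2, TOP2A and CCNA2), beside 9.53% of 14098 genes higher and 9.97% lower. MCM2 and TOP2A also passed on their intervals, beside 6.46% of all genes lower and 5.94% higher. The summed reads gave a log2 ratio of -0.28 (-0.40 to -0.16), whereas the median of the 10 ratios was -0.05, beside -0.02 for all genes. The ratio was below 0 for 7 of the 10 genes, or for 5 when the libraries were scaled by their mRNA reads, since BUB1 and CDK1 lay at -0.04. The share of all genes below 0 was not computed, so this count is not read as a trait of the 10 genes.

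CMT against IM compared treated castrated pigs with intact ones. BUB1 was higher by 1.5-fold and MCM2, CCNA2 and CCNB1 were lower, beside 8.81% of 14151 genes higher and 11.9% lower. The BUB1 row used had 1 read in IM and 2 in CMT, while the 2 rows of BUB1 together had 16 and 2. MCM2 alone also passed on its interval, beside 8.2% of all genes lower and 5.26% higher. The summed reads did not differ beyond counting error, with a log2 ratio of -0.03 (-0.16 to 0.10), and the median of the 10 was -0.13, beside -0.08 for all genes. Summed UQRPKM, which does not favour long genes as summed reads do, was 280, 327 and 302 in IM, CM and CMT. By that sum CMT stood above IM, and CM was again the highest. No interval was computed for it. Scaling by mRNA reads in place of the upper quartile raised every log2 ratio of this comparison by 0.11 and left CCNB1 short of the threshold. The 3 comparisons share libraries, CM and CMT included, so they are not independent of one another.

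Low read numbers make large ratios common. Among genes whose reads in the pair of libraries lay in the range of the 10 genes (3 to 622, 4 to 664 and 3 to 616 reads for CM to IM, CMT to CM and CMT to IM in turn), 29.2%, 28.7% and 30.8% passed 1.5-fold in either direction. Of the 10 genes 30.0%, 30.0% and 40.0% did so, which is 3, 3 and 4 genes. The lower end of each range was set by BUB1 alone, so these shares are not matched to the depth of each gene.

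**Figure D3:**
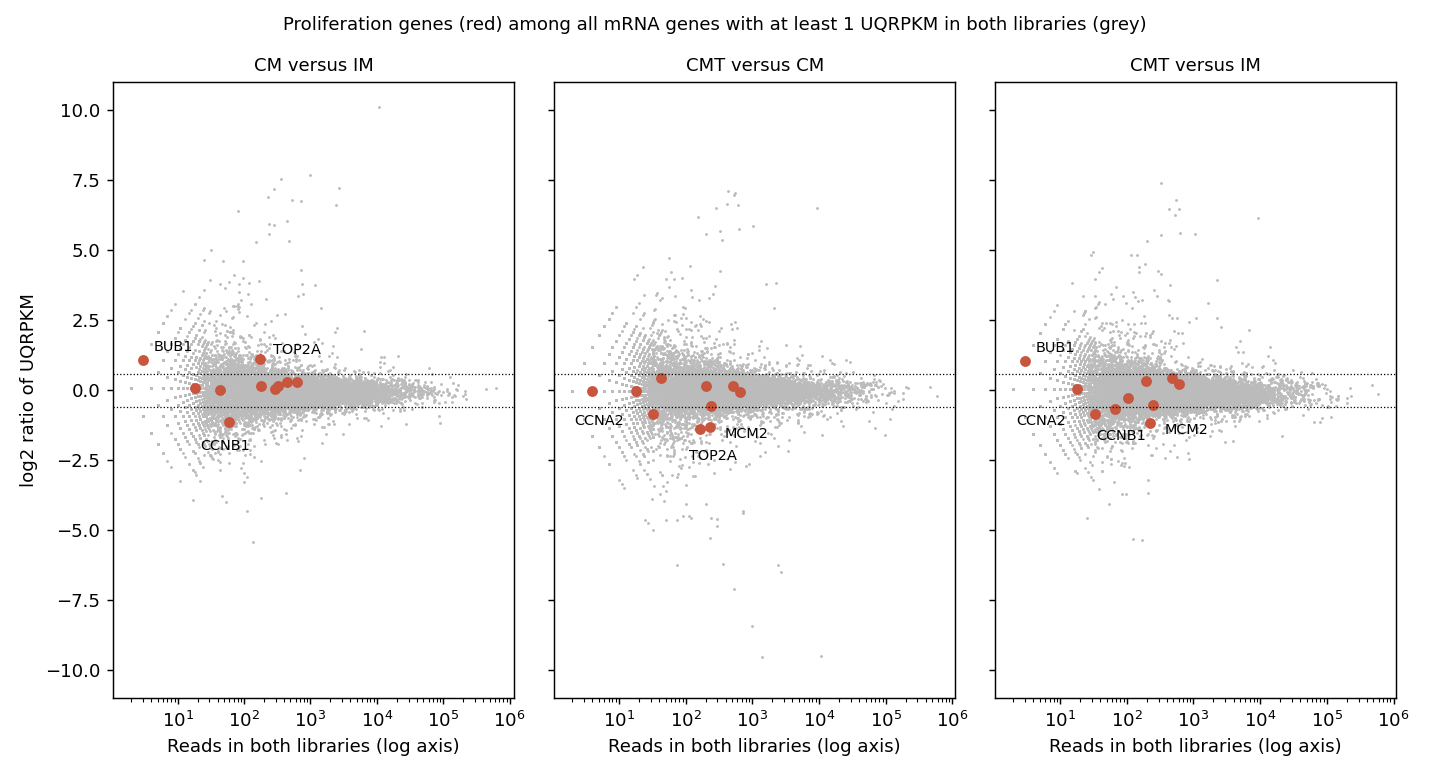
Log2 ratio of UQRPKM against the reads in both libraries of the pair (log axis), with the 10 proliferation genes in red, all other mRNA genes that reached 1 UQRPKM in each library in grey, and dotted lines at 1.5-fold. The grey cloud widens toward few reads, where BUB1 lies at 3 or 4 reads, while TOP2A in CM against IM and MCM2 in CMT against CM lie outside the dotted lines at higher read numbers.

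The wider machinery of the cell cycle was read from 6 lists of 134 genes, of which 120 were found and 108 were above 0 in every library. Another 11 were listed at 0 in all libraries, among them MCM5, CDK4, PLK1, RRM2 and TYMS, and no value is drawn from them. In CM against IM, 15 of 100 genes compared were higher and 17 lower, beside 8.38% and 10.4% of all genes, and 10 and 10 of them had intervals without 0, beside 5.08% and 6.65%. Scaled by mRNA reads, the split was 18 higher and 10 lower, of which 11 and 5 had such intervals. In CMT against CM, 9 of 103 were higher and 18 lower, beside 9.53% and 9.97% of all genes, and 1 and 13 had intervals without 0, beside 5.94% and 6.46%. With the same scaling, 3 and 11 had such intervals. In CMT against IM, 10 of 98 were higher and 18 lower, beside 8.81% and 11.9% of all genes, and 5 and 12 had intervals without 0, beside 5.26% and 8.2%. Scaled by mRNA reads, 10 were higher and 11 lower, of which 5 and 5 had such intervals. The spindle, kinetochore and cytokinesis list, the longest of the 6 with 30 of the 103 genes compared, had 2 genes higher and 10 lower in CMT against CM, of which 0 and 6 had intervals without 0. In CM against IM it had 6 higher and 5 lower of 29, of which 4 and 3 had such intervals. In CMT against IM it had 4 and 5 of 28, of which 1 and 2 did. Its median levels were low, at 4.99, 4.70 and 4.46 UQRPKM in IM, CM and CMT. No share among genes of like read number was computed for the wider lists. The median log2 ratios of the wider genes were -0.03, -0.12 and -0.10, and their share past 1.5-fold was 32.0%, 26.2% and 28.6%.

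**Figure D4:**
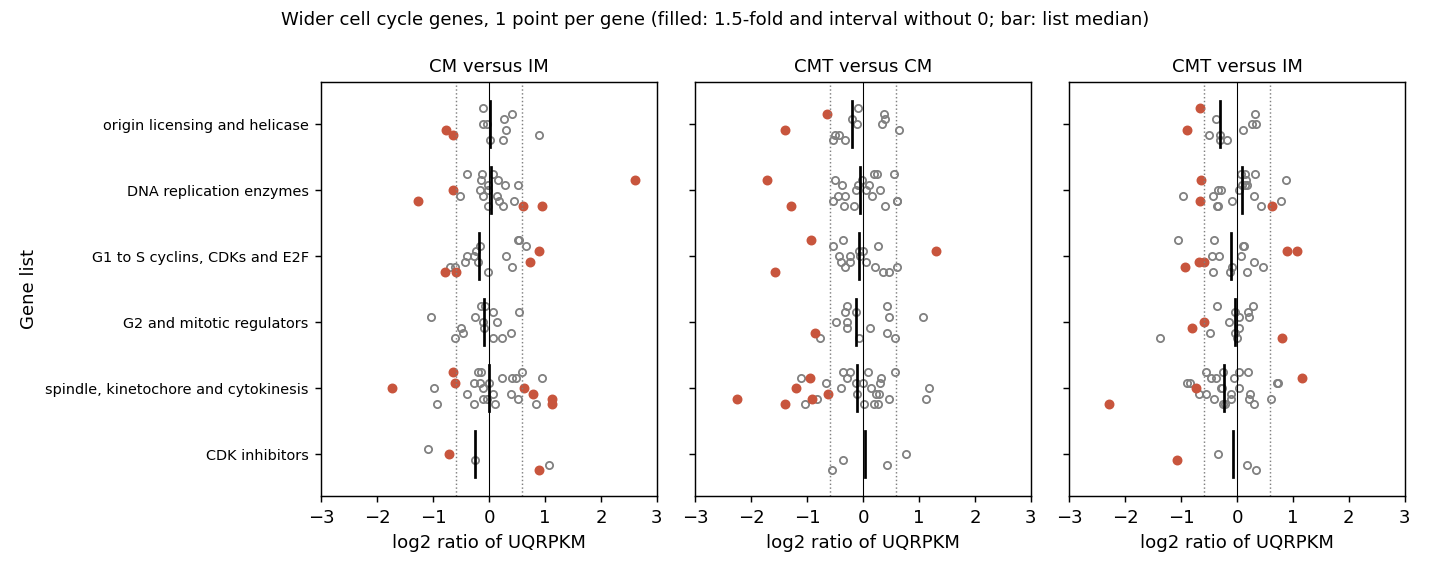
Log2 ratio of UQRPKM for every gene of the 6 wider cell cycle lists that reached 1 UQRPKM in each library, 1 point per gene and 1 panel per comparison, with list medians as bars and dotted lines at 1.5-fold. Filled points passed 1.5-fold with an interval without 0, and in CMT against CM 13 of the 14 filled points lie to the left of 0.

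Of the partners of MCM2 in the helicase, MCM3 and MCM4 were above 0, MCM5 was listed at 0, and MCM6 and MCM7 were not matched to a row. MCM3 was at 29.2, 26.9 and 18.5 UQRPKM across IM, CM and CMT, with a log2 ratio of CMT to CM of -0.54 (-0.92 to -0.16). MCM4 was at 51.2, 60.8 and 45.2 UQRPKM, and its ratio was -0.43 (-0.75 to -0.11). Both were lowest in CMT, like MCM2, but neither passed 1.5-fold against CM, and MCM3 did so against IM at -0.66 (-1.03 to -0.29). For CMT to CM the interval of MCM2 overlaps that of MCM3 but not that of MCM4. Of the licensing list, CDT1, which loads the helicase, fell most in CMT against CM, at 3.83, 7.10 and 2.70 UQRPKM in IM, CM and CMT and a log2 ratio of -1.39 (-2.69 to -0.23). GINS2, a subunit that joins the active helicase, fell most against IM in both CM, at -0.77 (-1.38 to -0.19), and CMT, at -0.89 (-1.51 to -0.30).

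Among the replication enzymes RPA3, a subunit of the protein that coats single-stranded DNA, was high in CM alone, at 6.70, 40.8 and 12.3 UQRPKM in IM, CM and CMT from 10, 58 and 18 reads. Its log2 ratio was 2.61 (1.62 to 3.74) for CM to IM and -1.73 (-2.58 to -0.94) for CMT to CM, and TOP2A had the same order of CM above both others. RPA3 also has a row under its gene ID, which was listed at 0 in every library, as was that of POLA1, and the second row of NCAPH passed 1.5-fold in no comparison. POLD3, a subunit of polymerase delta, was lowest in CM, at 15.7, 6.53 and 9.98 UQRPKM, with a log2 ratio of CM to IM of -1.27 (-2.07 to -0.51). Of the loader that opens PCNA, RFC1 to RFC5, RFC3 alone passed 1.5-fold with an interval without 0, in CMT against IM, at 0.63 (0.12 to 1.16).

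Regulators of the G1 to S step went both ways. CCNE2, a cyclin that starts S phase, rose in CM against IM by a log2 ratio of 0.89 (0.27 to 1.54), and CDK6 fell, at -0.79 (-1.23 to -0.36). In CMT against CM the largest rise was that of E2F5, a repressive E2F factor, at 1.30 (0.34 to 2.35), and the largest fall that of E2F8, at -1.57 (-2.85 to -0.43). E2F1, an activator of S phase genes, had its fall in CMT against IM, at -0.93 (-1.81 to -0.10). Of the CDK inhibitors, CDKN1A, which encodes p21, was at 82.9, 154 and 104 UQRPKM across IM, CM and CMT, and rose in CM against IM by 0.89 (0.67 to 1.12). CDKN2D was at 205, 125 and 97.2 UQRPKM and fell against IM in CM, with a log2 ratio of -0.71 (-0.94 to -0.48), and in CMT, with -1.08 (-1.33 to -0.83).

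Mitotic genes beyond the 10 were also called in both directions. CCNF fell in CMT against CM, at -0.87 (-1.55 to -0.21). In CMT against IM, WEE1, the kinase that holds CDK1 inactive, rose by 0.81 (0.38 to 1.24) and CDC20, an activator of the anaphase-promoting complex, fell, at -0.80 (-1.43 to -0.19). In the spindle list DLGAP5 rose by 1.13 (0.04 to 2.32) and the motor gene KIF15 fell, at -1.74 (-3.34 to -0.38) in CM against IM. KIFC1, a motor that gathers spindle poles, fell most in CMT against CM, at -2.26 (-4.70 to -0.42), and in CMT against IM, at -2.29 (-4.72 to -0.47), on 15, 14 and 3 reads. KIF2C rose in CMT against IM by 1.16 (0.39 to 1.98). INCENP, which anchors AURKB, was at 14.7, 21.1 and 13.6 UQRPKM and fell in CMT against CM, at -0.63 (-1.11 to -0.15), whereas AURKB had a ratio of 0.15. The checkpoint partners of BUB1 passed 1.5-fold in no comparison, BUB3 at 414, 384 and 424 UQRPKM and BUB1B at 6.16, 4.70 and 5.72.

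Markers of other cell types moved between the same libraries. Adipocyte markers were abundant, 8 of 10 being found with a summed level of 145894, 138281 and 116379 UQRPKM in IM, CM and CMT and ADIPOQ the highest. Of the 11 macrophage and monocyte names listed, 9 were found, with CD163 at 0, and their sum was 1194, 1388 and 1078 UQRPKM. CD68, which the study gives as LOC100520753, was not matched and is not in the sum. The markers differed in their order. EMR1, LYZ, ITGAM, AIF1 and MARCO were highest in CM. CD14, the highest of the list, was close in IM and CM, at 390, 395 and 339 UQRPKM across IM, CM and CMT. CSF1R was highest in IM (285, 246 and 221) and MRC1 in CMT (109, 105 and 121). The liver markers, 11 of 12 names found, summed to 2557, 9447 and 1737 UQRPKM. APOA1 was the highest of them in IM and CMT and made up nearly all of the sum there. It was at 2539, 2339 and 1714 UQRPKM across IM, CM and CMT, so the higher sum in CM came from other liver markers. APOA2 and SERPINA1 were listed at 0 outside CM. The skeletal muscle markers, 11 of 11 found, summed to 82.5, 68.3 and 6145 UQRPKM, with ACTA1 the highest and TNNT3 and CKM listed at 0 in every library. Mesothelial markers, 8 of 8 found with LRRN4 at 0 and KRT8 the highest, summed to 156, 297 and 743 UQRPKM. Of 7 mesothelial markers compared, 5 were higher by 1.5-fold in CM than in IM and 0 lower, with intervals without 0. In CMT 6 were higher and 1 lower in the same way, both against CM and against IM. The CM library thus stood out in liver markers other than APOA1 and the CMT library in muscle markers, while mesothelial sums rose from IM to CM to CMT. The part of these transcripts in the levels of the proliferation genes was not tested.

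Sums of the remaining lists differed between libraries as well. Progenitor and fibroblast markers, 10 of 10 found and led by COL3A1, summed to 75575, 72894 and 71170 UQRPKM. Endothelial markers, 7 of 8 found and led by PECAM1, summed to 9193, 7967 and 8607 UQRPKM, with TIE1 at 0 in at least 1 library. T cell and NK cell markers, 14 of 14 found and led by CD247, summed to 2254, 1896 and 1941 UQRPKM, and B cell and plasma cell markers, 11 of 12 found and led by XBP1, to 1472, 1647 and 1861, with POU2AF1 at 0 in at least 1 library. Most of the latter sum was XBP1, at 1259, 1466 and 1625 UQRPKM in IM, CM and CMT. Other B cell and plasma cell markers differed in order, with CD79B and MZB1 lowest in CM, CD79A lowest in CMT, and CR2 and IGJ highest in CMT. Erythroid markers, 5 of 7 found, summed to 4602, 4243 and 2368 UQRPKM, nearly all of it HBB, with KLF1 at 0 in at least 1 library. Their part in the levels of the 10 genes was not tested either.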

How the data were processed

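Per the study's methods, the authors filtered single-end Ion Proton reads, mapped them to Sscrofa 10.2 with MapSplice and deposited RPKM values scaled by the upper quartile (UQRPKM), 1 value per gene and library. The counting tool and annotation are not given in the sources used here. Whole reads were recovered with upper quartiles of 149, 142 and 146 for IM, CM and CMT as the smallest whole numbers at a length up to 120000 bases, and were found for all 20838 genes above 0. The recovery and the intervals were tested on simulated data.

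Log2 ratios of UQRPKM were taken without a pseudocount. A gene was changed at 1.5-fold or more where each library reached 1 UQRPKM. With 1 library per group, no p-value was computed, and DEGSeq, which the study used, was not run. Gene names were matched by symbol, then by gene ID or synonym in a RefSeq table of Sscrofa11.1, used for names and overlaps only. Of the wider cell cycle genes, 110 were found by symbol and 10 by gene ID.

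The 10 genes and all lists were chosen with earlier results of these data known. From each wider cell cycle list the text names the largest rise and the largest fall of each comparison among genes past 1.5-fold with an interval without 0, and from each cell type list the gene with the highest level. MCM3, MCM4, the RFC genes, INCENP, BUB3, BUB1B, NCAPH, EXOSC9 and ALB, and the genes named as listed at 0, were chosen after their values were seen. So were the macrophage and B cell markers named beyond the highest of each list. The value of 1 marker gene is not reported here. Python 3 with numpy, pandas and scipy was used. Other scalings, a pseudocount, other minimums and 2-fold were tried.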

Additional observations from a re-analysis of the deposited data

How the results depend on the processing

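No called log2 ratio of a proliferation gene changed sign in 120 values recomputed from the same rows. The scalings moved ratios by 0.02 to 0.11, less than the counting intervals span, so this says little about stability. At 2-fold, 2 of the proliferation genes remained past the threshold in CMT against IM, and the wider cell cycle genes past it were 8 for CM to IM, 13 for CMT to CM and 6 for CMT to IM, of which 5, 8 and 4 had intervals without 0. Scaled by mRNA reads, the wider genes with such intervals in CMT against IM were 10 in place of 17. With only the 9 rows under the listed symbols, an alternative chosen after seeing the data, 1 gene passed 1.5-fold with an interval without 0 for CM to IM and 1 for CMT to CM, and the summed reads of CM against IM gave 0.10 (-0.02 to 0.21), with TOP2A left out and another row taken for MKI67. Without TOP2A alone, also chosen after seeing the data, they gave 0.18. Taking BUB1 by its gene ID, also chosen after seeing the data, turned the call of BUB1 for CM to IM, from 2 genes higher and 1 lower to 1 and 2, and left it out of both comparisons with CMT, where 0 of 9 were higher and 3 lower. The order of the libraries in UQRPKM was kept for 8 of 10 genes when reads were scaled by mRNA reads and length, the exceptions being CDK1 and BUB1. No paired analysis was possible because each group has 1 library, and for the same reason no library could be left out. The search for promoter motifs was not run, since no promoter sequence was used here. Depth limits CDK1 and BUB1 most.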
